A study of Mus musculus with 20 samples.

Results

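The expression of 7 genes of cholesterol synthesis, *Hmgcs1*, *Idi1*, *Fdps*, *Fdft1*, *Sqle*, *Lss* and *Cyp51*, was examined in mouse bone marrow neutrophils. They were taken by gene symbol from 24421 listed genes, all 7 were found, and all 7 were among the 14030 genes with enough counts to be tested. The RNA-seq libraries came from 4 groups of 5 female mice, 1 library per mouse: WT mice (C57BL/6J) and Bmal1 Mye-/- mice, of which 1 group each was left untreated and 1 received IMQ. Bmal1 Mye-/- mice carry floxed Bmal1, a transcription factor of the circadian clock, and a Cre recombinase inserted at *Lyz2*, which is active in neutrophils, monocytes and macrophages. IMQ is imiquimod, a TLR7/8 agonist, given as a 5% cream on the ears 3 times per week for 6 weeks from 8 to 10 weeks of age in a model of lupus. Treatment was given in the evening and all mice were euthanized in the morning, so that 1 phase of the day was sampled. WT mice were purchased and Bmal1 Mye-/- mice were bred in house, so differences between the genotypes cannot be told apart from differences in origin. Neutrophils were obtained by magnetic negative selection, and no sort removed immature or dividing cells.

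Cells make cholesterol from acetyl-CoA by way of mevalonate, farnesyl diphosphate, squalene and lanosterol. When sterols in the endoplasmic reticulum run low, the factor SREBP2, encoded by *Srebf2*, is escorted out of it by SCAP, cut by proteases and switches on the genes of this pathway. When sterols are high, INSIG proteins hold SCAP back, and oxysterols activate LXR, which raises the exporters ABCA1 and ABCG1. Farnesyl diphosphate is also the source of isoprenoids for protein prenylation and coenzyme Q.

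The promoters of the genes with a listed sequence are shown for the member with a sterol regulatory element core and for both members whose groups separated under IMQ. Each is 300 bases, 250 before and 50 after the transcription start, on the gene's strand of GRCm38.p6 from RefSeq. Capitals mark matches on either strand to the sterol regulatory element core TCACNCCAC. They also mark the CCAAT box, spelled CCAAT, and the GC box, spelled GGGCGG, again on either strand. The E-box CACGTG, to which clock factors can bind, was also searched.
Hmgcs1, chr13:119690101-119690400, plus strand: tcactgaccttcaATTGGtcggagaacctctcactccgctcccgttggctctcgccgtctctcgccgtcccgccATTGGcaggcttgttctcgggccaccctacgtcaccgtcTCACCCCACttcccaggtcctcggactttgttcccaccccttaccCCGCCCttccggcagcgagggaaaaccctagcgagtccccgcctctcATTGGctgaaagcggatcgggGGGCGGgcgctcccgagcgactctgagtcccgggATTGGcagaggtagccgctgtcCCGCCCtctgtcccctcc
Idi1, chr13:8885356-8885655, plus strand: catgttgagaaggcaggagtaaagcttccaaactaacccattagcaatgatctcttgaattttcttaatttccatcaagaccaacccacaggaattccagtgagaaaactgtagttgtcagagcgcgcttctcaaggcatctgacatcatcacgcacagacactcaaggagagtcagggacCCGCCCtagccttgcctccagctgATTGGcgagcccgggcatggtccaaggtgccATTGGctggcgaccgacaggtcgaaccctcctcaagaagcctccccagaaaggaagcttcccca
Cyp51, chr5:4104648-4104947, minus strand: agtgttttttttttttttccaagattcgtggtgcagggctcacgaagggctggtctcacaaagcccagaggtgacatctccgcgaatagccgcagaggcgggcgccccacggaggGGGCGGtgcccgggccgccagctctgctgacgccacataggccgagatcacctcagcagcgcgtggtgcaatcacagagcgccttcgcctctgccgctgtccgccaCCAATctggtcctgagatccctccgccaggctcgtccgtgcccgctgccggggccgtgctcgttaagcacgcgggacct
The *Hmgcs1* promoter held the sterol regulatory element core, written TCACCCCAC, 137 bases before the start. Of the 4 members with a promoter sequence (*Lss* is the fourth), 1 held that core, 0 an E-box, 4 a CCAAT box and 4 a GC box. Of 32851 promoters of the same length, 1.24% held the core, 7.15% an E-box, 37.4% a CCAAT box and 35.7% a GC box. Of 13 other genes of the pathway with a promoter sequence, 0 held the core, 3 an E-box, 12 a CCAAT box and 11 a GC box. The matches are letters in a window and do not show binding.

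Each library held between 30782166 and 92613500 reads assigned to genes. CPM are gene counts divided by the library total after adjustment with edgeR's TMM factors. Raw counts of the members ranged from 32 for *Idi1* to 3238 for *Hmgcs1*, and counting error and the variation between mice both enter the SDs. *Lyz2* lay between 2465 and 12033 CPM in the 10 WT libraries and between 58.8 and 177 CPM in the 10 Bmal1 Mye-/- libraries, which followed the labels. The targeted gene, listed as *Arntl*, was at 0.895 to 1.71 CPM in untreated WT and 0.468 to 1.1 CPM in untreated Bmal1 Mye-/-, with a log2 fold change of −0.90 ± 0.38 (SE) that did not pass (edgeR quasi-likelihood test, adjusted p = 1.0). With IMQ it was at 0.562 to 1.87 CPM in WT and 0.337 to 1.52 CPM in Bmal1 Mye-/-. The counts give 1 value per gene, so the deleted part of *Arntl* could not be examined by itself. The 11 neutrophil markers found were detected in the libraries, with a summed level of 134859 to 160219 CPM in the untreated groups. In 3 IMQ-treated libraries this sum was lower, at 76880 CPM in Bmal1 Mye-/- replicate 1, 109879 in WT replicate 3 and 118923 in Bmal1 Mye-/- replicate 5. Replicate 5 of IMQ-treated WT stood apart from its group over all genes: on the first principal component of the most variable genes it was at −20.47, where the 4 other IMQ-treated WT libraries were at 35.02 to 60.75 and untreated WT at −29.75 to −3.05. In bulk RNA, fewer cells of a type and less RNA per cell cannot be told apart.

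Levels per kilobase used 1 mRNA length per gene, that of its longest principal coding transcript, and the order depends on this choice. For *Fdps* that length was 1382 bases, while its annotated exons together cover 4208 bases. For *Hmgcs1* these lengths were 3464 and 4594 bases, and for *Fdft1* 3698 and 4227 bases. Per kilobase of mRNA, *Fdps* and *Hmgcs1* were the most abundant of the 7 transcripts in untreated WT, at 9.80 ± 2.36 and 9.12 ± 1.37 CPM per kb (SD, n = 5), and their libraries overlapped. *Fdft1* followed at 3.97 ± 0.67 CPM per kb, below both without overlap. *Cyp51* was at 2.33 ± 0.284 and *Sqle* at 1.98 ± 0.54 CPM per kb, with overlapping libraries. *Idi1* at 0.614 ± 0.0951 and *Lss* at 0.456 ± 0.123 CPM per kb were the least abundant and overlapped with each other. The same order held for the group means in untreated and IMQ-treated Bmal1 Mye-/-, and in IMQ-treated WT *Lss* and *Idi1* changed places, at 0.311 ± 0.127 and 0.309 ± 0.0688 CPM per kb. The libraries of *Fdft1* and *Cyp51* overlapped in untreated Bmal1 Mye-/- as well, and in IMQ-treated Bmal1 Mye-/- so did those of *Hmgcs1* and *Fdft1* and those of *Sqle* and *Idi1*.

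**Figure D1:**
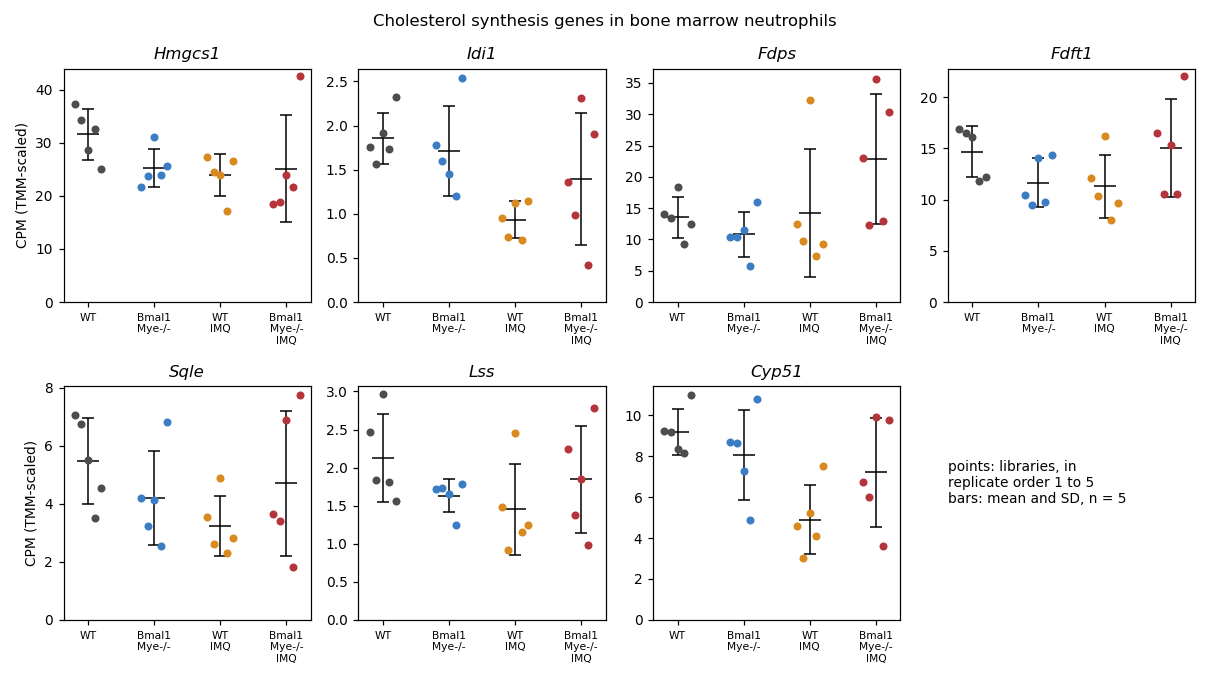
CPM of the 7 cholesterol synthesis genes by group, 1 point per library (replicates 1 to 5 from left to right), with mean and SD (n = 5). For *Idi1* and *Cyp51* the WT IMQ points lie below the untreated WT points, and for *Fdps* the Bmal1 Mye-/- IMQ points reach 35.7 CPM.

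To ask how IMQ treatment related to the pathway, IMQ-treated and untreated mice were compared within each genotype. In WT, 6 of the 7 genes had a lower fitted level with IMQ, beside 46.8% of all tested genes. Their log2 fold changes were −0.38 to −0.99, and *Fdps* was at 0.07. None passed after adjustment over 14030 genes (edgeR quasi-likelihood test), where 3.95% of all tested genes passed. At an unadjusted p under 0.05 there were 3 of 7, *Sqle*, *Idi1* and *Cyp51*, beside 22.3% of all tested genes. The median log2 fold change of the 7 was −0.55, beside 0.03 over all tested genes. Markers of plasma cells moved in this comparison as well: 3 of 4 fell with IMQ in WT, and their summed level was 420 to 1559 CPM untreated and 152 to 421 CPM with IMQ, with none at 0. The same number, 3 of 4, fell in Bmal1 Mye-/-, from sums of 408 to 1137 CPM to 196 to 293 CPM. In WT 8 of 8 B lineage markers had a lower fitted level, 5 at an unadjusted p under 0.05 and 0 called (edgeR). There 1 of 5 eosinophil markers was called lower and 1 of 5 tested erythroid markers higher. In Bmal1 Mye-/- 3 of 8 B lineage, 1 of 4 tested T and NK and 1 of 5 eosinophil markers were called lower, and 1 of 4 tested basophil and mast cell markers higher. The part of these markers in the levels of the 7 genes was not tested. In Bmal1 Mye-/-, 1 of 7 passed, *Fdps*, which rose, where 23.5% of all tested genes passed. The other 6 lay between −0.30 and 0.37 and did not pass, and the median of the 7 was 0.17, beside 0.02 over all tested genes. At an unadjusted p under 0.05 only *Fdps* was counted, beside 39.3% of all tested genes.

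*Hmgcs1* (chromosome 13, 119690379 to 119708260 on mm10, plus strand) encodes an early enzyme of the pathway, upstream of mevalonate. It was at 37.3, 34.2, 28.7, 32.6 and 25.1 CPM in replicates 1 to 5 of untreated WT and at 27.3, 24.4, 24.0, 17.2 and 26.6 CPM in those of IMQ-treated WT. Of the IMQ-treated libraries 3 lay below the lowest untreated one, but the groups overlapped, and the log2 fold change was −0.40 ± 0.20 (SE, adjusted p = 0.231, edgeR). Bmal1 Mye-/- libraries were at 21.7, 23.8, 31.0, 24.0 and 25.6 CPM untreated and at 18.5, 18.9, 23.9, 21.7 and 42.6 CPM with IMQ. Replicate 5 of the IMQ group stood above the 9 other Bmal1 Mye-/- libraries, and the fitted change was −0.003 ± 0.195 on the log2 scale (adjusted p = 0.991, edgeR). Without that replicate it was −0.28.

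*Idi1* (chromosome 13, 8885501 to 8892451, plus strand) encodes the isomerase that makes dimethylallyl diphosphate, the starter of isoprenoid chains. It was at 1.76, 1.56, 1.92, 1.73 and 2.32 CPM in untreated WT and at 0.957, 0.738, 1.12, 0.704 and 1.15 CPM in IMQ-treated WT. The groups did not overlap, and the IMQ level was 1.99-fold lower by the fit, with a log2 fold change of −0.99 ± 0.335 (SE) that did not pass after adjustment (adjusted p = 0.0902, edgeR). The Bmal1 Mye-/- libraries were at 1.78, 1.60, 1.45, 1.20 and 2.54 CPM untreated and at 1.36, 0.989, 2.31, 0.415 and 1.91 CPM with IMQ. These groups overlapped widely, with replicate 4 lowest in both, and the log2 fold change was −0.30 ± 0.33 (SE, adjusted p = 0.522, edgeR).

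*Fdps* (chromosome 3, 89093588 to 89101959, minus strand) encodes farnesyl diphosphate synthase, at the branch to sterols and to prenylated proteins, and its locus overlaps *Gm43738* of GENCODE on the same strand. In Bmal1 Mye-/- it was at 10.4, 10.4, 11.5, 5.78 and 15.9 CPM untreated and at 23.0, 12.3, 35.7, 13 and 30.3 CPM with IMQ. The 5 IMQ libraries were each above their same-numbered untreated library, while 2 of them, replicates 2 and 4, lay below the highest untreated one. *Fdps* rose 2.11-fold, with a log2 fold change of 1.08 ± 0.38 (SE, adjusted p = 0.0469, edgeR). This call lay close to the threshold and was lost in 11 of 20 fits that left out 1 library, in which adjusted p ranged from 0.0101 to 0.115 and the log2 fold change from 0.87 to 1.29. Of 9 other alternatives 6 called it. Among them were DESeq2 (1.05, adjusted p = 0.0212) and the replicate block (1.0, adjusted p = 0.013, edgeR), where 30% and 22.2% of all tested genes passed. With limma, total library sizes and no filter it was not called, where 23.1%, 22.7% and 12.3% of all tested genes passed. In WT it was at 14, 13.5, 18.4, 9.34 and 12.5 CPM untreated and at 12.4, 9.73, 32.2, 7.29 and 9.29 CPM with IMQ. There replicate 3 stood alone at the top, and the fitted log2 fold change of 0.07 ± 0.38 (SE, adjusted p = 0.942, edgeR) was −0.49 without it.

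The libraries with the highest *Fdps* were also high in genes of dividing cells. The 10 proliferation genes, such as *Mki67* and *Top2a*, summed to 390 to 747 CPM in the 10 untreated libraries, to 465 to 2540 CPM in IMQ-treated WT and to 1174 to 2730 CPM in IMQ-treated Bmal1 Mye-/-. Of these genes 9 rose and 0 fell with IMQ in Bmal1 Mye-/-, where 23.5% of all tested genes passed. In WT 0 passed (edgeR), beside 3.95% of all tested genes. There 10 of 10 had a higher fitted level and 7 had an unadjusted p under 0.05, beside 53.2% and 22.3% of all tested genes. DESeq2 called 3 of the 10 in WT and limma 0, beside 10.6% and 5.03% of all genes they tested. The 4 libraries with the highest *Fdps* were also the 4 with the highest sum: Bmal1 Mye-/- IMQ replicate 3 (35.7 CPM of *Fdps* beside a sum of 1787), WT IMQ replicate 3 (32.2 beside 2540), Bmal1 Mye-/- IMQ replicate 5 (30.3 beside 2730) and replicate 1 (23.0 beside 2600). The next library, untreated WT replicate 3, was at 18.4 CPM of *Fdps* with a sum of 676. In 4 other IMQ-treated libraries the sum, 1057 to 1329, was above that of every untreated library, while *Fdps*, at 9.73 to 13 CPM, lay within the untreated WT range of 9.34 to 18.4 CPM. Markers of granulocyte precursors summed to 191 to 1141 CPM in untreated WT, 372 to 941 in untreated Bmal1 Mye-/-, 122 to 654 in IMQ-treated WT and 226 to 1607 in IMQ-treated Bmal1 Mye-/-, and 4 of 6 monocyte markers rose with IMQ in Bmal1 Mye-/-. The monocyte sum there was 269 to 372 CPM untreated and 1586, 577, 152, 264 and 120 CPM in replicates 1 to 5 with IMQ, so that only replicates 1 and 2 were above the untreated libraries. None of the proliferation, precursor or monocyte markers was at 0 in all libraries, and their part in the rise of *Fdps* was not tested. With replicate 3 of IMQ-treated WT and replicate 1 of IMQ-treated Bmal1 Mye-/-, the libraries with over 6% of reads not uniquely aligned, left out (an alternative chosen after seeing the data), *Fdps* rose by 1.11 on the log2 scale in Bmal1 Mye-/- (adjusted p = 0.0166, edgeR).

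**Figure D2:**
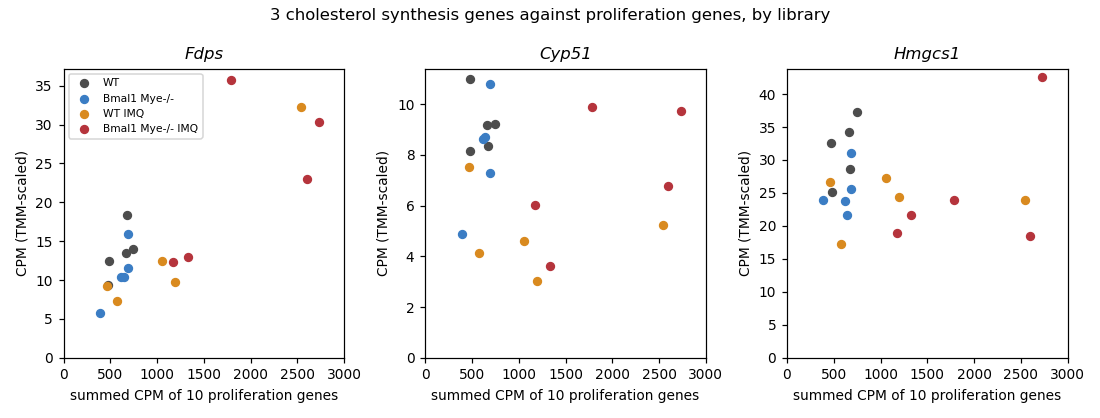
CPM of *Fdps*, *Cyp51* and *Hmgcs1* on the vertical axes against the summed CPM of 10 proliferation genes on the horizontal axes, 1 point per library, coloured by group. The 4 libraries with the highest sums, 1787 to 2730, hold the 4 highest values of *Fdps*, from 23.0 to 35.7 CPM, whereas their *Cyp51* values spread from 5.23 to 9.89 CPM.

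*Fdft1* (chromosome 14, 63145150 to 63179578, minus strand) encodes squalene synthase, the first enzyme committed to sterols, and its locus overlaps *Ctsb* on the other strand. It was at 16.9, 16.5, 16.1, 11.8 and 12.2 CPM in untreated WT and at 12.1, 10.4, 16.2, 8.05 and 9.68 CPM with IMQ. The groups overlapped, and the log2 fold change was −0.381 ± 0.215 (SE, adjusted p = 0.312, edgeR). Levels in Bmal1 Mye-/- were 10.5, 9.43, 14.1, 9.81 and 14.4 CPM untreated and at 16.5, 10.6, 15.3, 10.6 and 22.1 CPM with IMQ. Each IMQ library was above its same-numbered untreated library, but the groups overlapped and 0.371 ± 0.215 (log2 fold change and SE) did not pass (adjusted p = 0.202, edgeR).

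*Sqle* (chromosome 15, 59315077 to 59331192, plus strand) encodes squalene epoxidase, a further control point of the pathway. It was at 7.07, 6.74, 5.49, 3.52 and 4.53 CPM in untreated WT and at 3.56, 2.62, 4.90, 2.32 and 2.81 CPM with IMQ. The groups overlapped, and the log2 fold change of −0.755 ± 0.345 (SE) did not pass (adjusted p = 0.202, edgeR). Libraries of Bmal1 Mye-/- ranged from 2.56 to 6.81 CPM untreated and from 1.82 to 7.74 CPM with IMQ. The fitted difference there was 0.17 ± 0.34 on the log2 scale (adjusted p = 0.743, edgeR).

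*Lss* (chromosome 10, 76531588 to 76557138, plus strand) encodes lanosterol synthase, which closes the sterol ring system. In WT it ranged from 1.56 to 2.96 CPM untreated and from 0.913 to 2.45 CPM with IMQ, with a log2 fold change of −0.55 ± 0.29 (SE, adjusted p = 0.271, edgeR). Bmal1 Mye-/- libraries ranged from 1.25 to 1.79 CPM untreated and from 0.986 to 2.78 CPM with IMQ, with a log2 fold change of 0.18 ± 0.29 (SE, adjusted p = 0.663, edgeR). Both pairs of groups overlapped.

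*Cyp51* (chromosome 5, 4081145 to 4104746, minus strand) encodes the lanosterol demethylase, and its locus overlaps *Akap9* on the other strand. It was at 9.22, 9.19, 8.35, 8.13 and 11 CPM in untreated WT and at 4.60, 3.03, 5.23, 4.12 and 7.53 CPM in IMQ-treated WT. The groups did not overlap, and the IMQ level was 1.87-fold lower by the fit, with a log2 fold change of −0.90 ± 0.27 (SE) that did not pass (adjusted p = 0.0591, edgeR). Replicate 5 was the IMQ-treated library nearest to the untreated ones, and without it *Cyp51* passed at −1.12 (adjusted p = 0.0121, edgeR), in a fit where 13.9% of all tested genes passed. Its Bmal1 Mye-/- libraries were at 8.69, 8.62, 7.27, 4.88 and 10.8 CPM untreated and at 6.75, 6.02, 9.89, 3.60 and 9.74 CPM with IMQ. These groups overlapped, with replicate 4 lowest in both, and the log2 fold change was −0.16 ± 0.26 (SE, adjusted p = 0.67, edgeR).

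*Idi1* and *Cyp51* were thus the 2 of 7 members whose WT groups did not overlap, both lower with IMQ, where 3.31% of all tested genes were lower without overlap. Of the 7 in Bmal1 Mye-/-, 0 separated, where 20.1% of all tested genes separated in either direction. The calls in WT depended on the method: DESeq2 called *Cyp51* (log2 fold change −0.91, adjusted p = 0.0148) and *Idi1* (−1.0, adjusted p = 0.0331), and it called 10.6% of all genes it tested. Over 29 alternatives the adjusted p of *Cyp51* ranged from 0.0121 to 0.152 and that of *Idi1* from 0.0331 to 0.194, and their log2 fold changes from −1.12 to −0.77 and from −1.08 to −0.90.

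The genotypes were compared next, without and with IMQ. In untreated mice the 7 genes had a lower fitted level in Bmal1 Mye-/-, beside 51.3% of all tested genes. Their log2 fold changes were −0.115 to −0.385, and 0 of 7 passed (edgeR), also at an unadjusted p under 0.05. Of all tested genes 0.207% passed and 2.19% had an unadjusted p under 0.05. The median of the 7 was −0.33, beside −0.004 over all tested genes. With IMQ the 7 genes had a higher fitted level in Bmal1 Mye-/-, beside 53.1% of all tested genes. The values ran from 0.07 for *Hmgcs1* to 0.69 ± 0.38 (SE) for *Fdps* (adjusted p = 0.284, edgeR). The 7 genes were correlated within groups (median Pearson's r of 0.65 over their pairs), so a shared direction is not 7 independent results. Of the 7, 0 passed and 0 had an unadjusted p under 0.05, beside 0.292% and 19.9% of all tested genes. The median was 0.535, beside 0.03 over all tested genes, and the groups of each gene overlapped. Replicate 3 of IMQ-treated WT decided the count: without it *Fdps* passed at 1.25 (adjusted p = 0.0177, edgeR) and *Fdft1* at 0.59 (adjusted p = 0.0496, edgeR), in a fit where 21.9% of all tested genes passed. Markers of dividing cells and of other cells moved in this comparison as well. Of 10 proliferation markers 10 had a higher fitted level (median 0.70), 0 passed and 2 had an unadjusted p under 0.05 (edgeR). The sums of these 10 overlapped, at 465 to 2540 CPM in WT and 1174 to 2730 CPM in Bmal1 Mye-/-. Of 5 eosinophil markers 2 were called higher in Bmal1 Mye-/-, *Epx* (2.97 ± 0.62, adjusted p = 0.0439, edgeR) and *Prg2* (2.54 ± 0.50, adjusted p = 0.0268, edgeR), and the summed level was 17.3 to 34.3 CPM in WT and 36.9 to 186 CPM in Bmal1 Mye-/-. Of 4 tested basophil and mast cell markers 0 passed and 4 had an unadjusted p under 0.05 (edgeR), with a median of 1.55 and sums of 1.74 to 3.46 and 1.95 to 10.8 CPM. The medians of 7 granulocyte precursor and 6 monocyte markers were 1.12 and 1.40, with 0 passing and 3 of each at an unadjusted p under 0.05 (edgeR). Precursor sums overlapped, at 122 to 654 CPM in WT and 226 to 1607 CPM in Bmal1 Mye-/-. Monocyte sums were 170 to 406 CPM in WT and 1586, 577, 152, 264 and 120 CPM in replicates 1 to 5 of Bmal1 Mye-/-. Only replicates 1 and 2 were thus above WT. Lower fitted levels were found for 5 of 5 tested erythroid markers (median −1.02) and 10 of 11 neutrophil markers (median −0.24). Of all tested genes 46.9% had a lower fitted level. In these 2 lists 0 passed, and 2 and 1 markers had an unadjusted p under 0.05 (edgeR). Of 8 erythroid markers 3 were at 0 in all libraries, and none of the other markers given here was. The part of all these markers in the levels of the 7 genes was not tested.

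Whether IMQ related to these genes differently in the 2 genotypes was tested as the interaction. The 7 fitted differences, the log2 change in Bmal1 Mye-/- minus that in WT, were positive, beside 51.2% of all tested genes. They ran from 0.40 ± 0.28 (SE) for *Hmgcs1* to 1.01 ± 0.53 for *Fdps*, with a median of 0.74 beside 0.01 over all tested genes. None passed, and the adjusted p of each was 0.64 (edgeR). DESeq2 and limma also called 0 of 7 in the interaction and in both comparisons of the genotypes. At an unadjusted p under 0.05 there was 1 of 7, *Fdft1* (0.75 ± 0.30), beside 5.14% of all tested genes, of which 0% passed after adjustment. A difference in the response of the pathway between the genotypes was therefore not established, and the interaction reuses the libraries of the comparisons above.

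**Figure D3:**
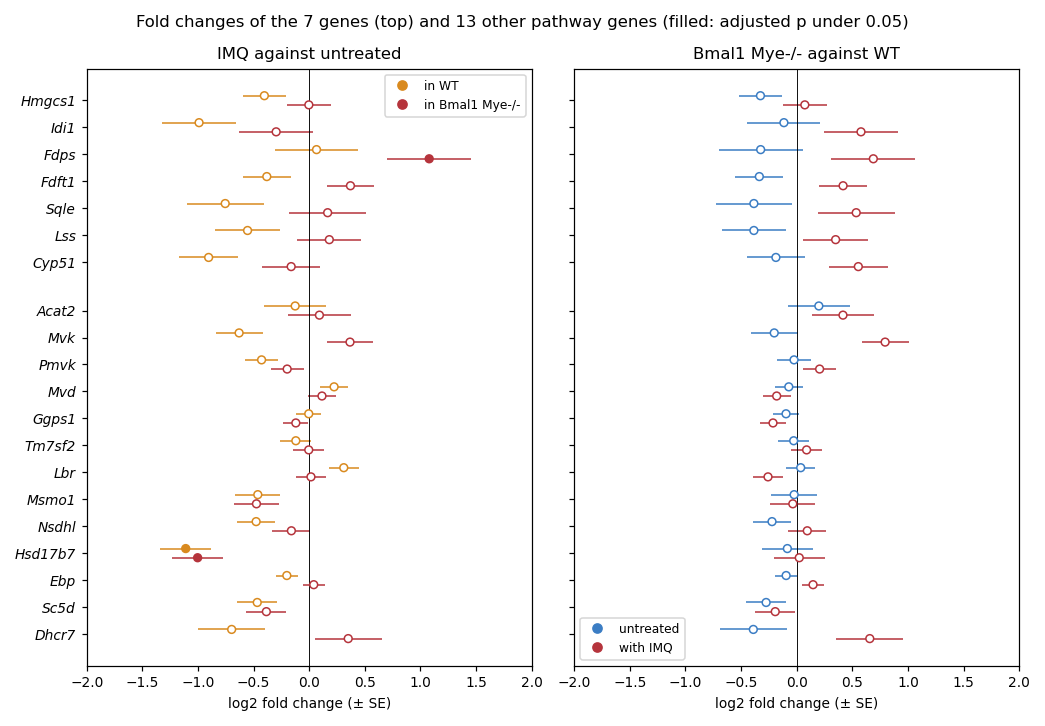
Fitted log2 fold changes with SE for the 7 genes (top) and 13 other genes of the pathway (below), IMQ against untreated on the left and Bmal1 Mye-/- against WT on the right. Filled points passed an adjusted p of 0.05: *Hsd17b7* in WT, and *Fdps* and *Hsd17b7* in Bmal1 Mye-/-.

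The 13 other genes of the pathway were compared in the same fits. In WT, 1 of 13 fell with IMQ and 0 rose, where 3.95% of all tested genes passed. Of the 13, 11 had a lower fitted level, beside 46.8% of all tested genes. At an unadjusted p under 0.05 there were 8, beside 22.3% of all tested genes, and the median log2 fold change was −0.43. *Hsd17b7*, a sterol ketone reductase late in the pathway, was at 20.7, 14.5, 15.5, 15.5 and 17.9 CPM untreated and at 6.38, 6.43, 6.74, 6.16 and 13.2 CPM with IMQ. The groups did not overlap, replicate 5 stood above the other IMQ libraries, and the gene fell with a log2 fold change of −1.11 ± 0.23 (SE, adjusted p = 0.0184, edgeR). That call was lost without replicate 1 or replicate 2 of IMQ-treated WT, with adjusted p up to 0.0535 (edgeR). *Lbr*, a lamin B receptor with sterol reductase activity, had the highest fitted change of the list at 0.31 ± 0.13 and did not pass (adjusted p = 0.171, edgeR).

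In Bmal1 Mye-/-, 1 of 13 fell and 0 rose, where 23.5% of all tested genes passed. *Hsd17b7* was at 13.1 to 20.5 CPM untreated and 5.44 to 10.6 CPM with IMQ, and fell by 1.00 (SE 0.23, adjusted p = 0.00836, edgeR), with an interaction of 0.11 ± 0.32 (adjusted p = 0.895, edgeR). The highest value was that of *Mvk*, mevalonate kinase, at 0.37 ± 0.21 (adjusted p = 0.198, edgeR). The fit with the replicate number as a block called 1 of 13 in Bmal1 Mye-/-, again *Hsd17b7* (adjusted p = 0.00766, edgeR). It called 22.2% of all tested genes. Between the genotypes 0 of 13 passed without or with IMQ, and 0 passed the interaction (edgeR). At an unadjusted p under 0.05 these counts were 0, 2 and 2, beside 2.19%, 19.9% and 5.14% of all tested genes. DESeq2 called 1 gene, *Mvk*, with IMQ, where it called 2.24% of all genes it tested. The largest fitted difference with IMQ was that of *Mvk*, at 0.80 ± 0.21 (adjusted p = 0.145, edgeR), which passed without WT IMQ replicate 3 (0.95, adjusted p = 0.0138, edgeR), where 21.9% of all tested genes passed, or without Bmal1 Mye-/- IMQ replicate 4 (0.92, adjusted p = 0.0367, edgeR), where 1.96% did.

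Among 7 genes of sterol sensing, 0 passed in WT (edgeR) and 3 had an unadjusted p under 0.05, beside 3.95% and 22.3% of all tested genes. DESeq2 called 1, *Srebf1*, and limma 0, beside 10.6% and 5.03% of all genes they tested. *Srebf2* was at 141 to 185 CPM untreated and 81.6 to 167 CPM with IMQ in WT, with a log2 fold change of −0.59 ± 0.21 (SE, adjusted p = 0.105, edgeR). *Insig1*, itself a target of SREBP2, had the lowest fitted change of the list at −0.68 ± 0.25 (adjusted p = 0.116, edgeR) and *Srebf1*, the gene of the related factor SREBP1, the highest at 0.585 ± 0.195 (adjusted p = 0.0868, edgeR). With IMQ in Bmal1 Mye-/- 1 of 7 passed, where 23.5% of all tested genes did. This was *Mbtps2*, the second protease of SREBP processing, which rose by a log2 fold change of 0.56 ± 0.14 (adjusted p = 0.0125, edgeR). *Srebf2* had the lowest value there at −0.18 ± 0.21.

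Of 5 tested genes of uptake and other sterol-regulated genes, 0 passed in WT with edgeR, DESeq2 or limma. At an unadjusted p under 0.05 (edgeR) there was 1, beside 22.3% of all tested genes, and the median log2 fold change was −0.40. *Lipa*, the lysosomal lipase, had the lowest value there at −0.46 ± 0.15 (adjusted p = 0.085, edgeR) and *Npc2* the highest at 0.16 ± 0.17. In Bmal1 Mye-/- 1 of 5 passed, where 23.5% of all tested genes did: *Npc1*, which moves cholesterol out of lysosomes, fell by 0.55 (SE 0.18, adjusted p = 0.0333, edgeR). *Tmem97* had the highest value there at 0.94 ± 0.43 (adjusted p = 0.113, edgeR).

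Of 8 tested genes of efflux, storage and oxysterols, 2 rose in WT, where 3.95% of all tested genes passed. *Abca1*, the exporter of cholesterol to apolipoproteins, was at 4.28, 4.25, 4.92, 5.40 and 3.71 CPM untreated and at 18, 33.7, 24.4, 39.4 and 5.82 CPM with IMQ, without overlap, and rose with a log2 fold change of 2.425 ± 0.536 (SE, adjusted p = 0.0218, edgeR). *Abcg1*, the exporter to HDL, was at 69.3 to 96.2 CPM untreated and 88.2 to 217 CPM with IMQ, and rose by 0.88 (SE 0.23, adjusted p = 0.0371, edgeR). Replicate 5, which was the highest of the IMQ-treated WT libraries in *Hsd17b7* and *Cyp51*, was the lowest of them in *Abca1* and *Abcg1*, and it lay with the untreated WT libraries over all genes as well. *Apoe* had the lowest value in WT, at −0.77 ± 0.37 (adjusted p = 0.22, edgeR), and fell in Bmal1 Mye-/- by 1.14 (SE 0.37, adjusted p = 0.0336, edgeR). With the replicate block that call was lost (adjusted p = 0.0611, edgeR). *Abca1* had the highest value of the list in Bmal1 Mye-/-, at 0.73 ± 0.51, where its IMQ libraries ranged from 2.43 to 30.2 CPM, and *Abcg1* was at −0.01 ± 0.22.

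**Figure D4:**
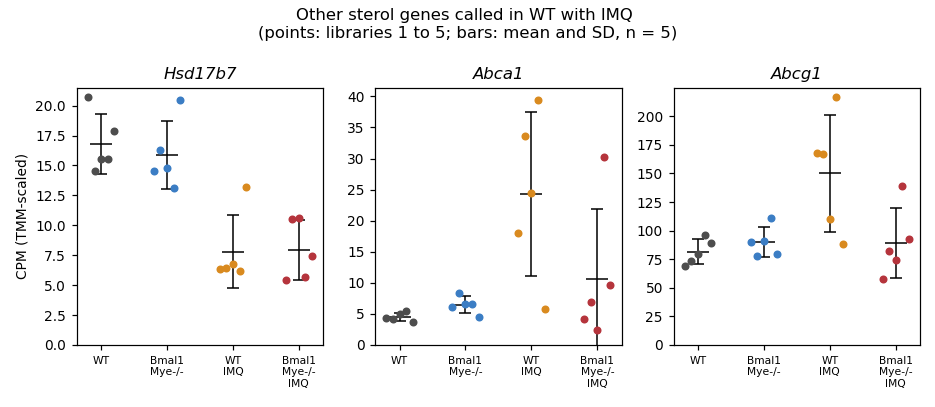
CPM of *Hsd17b7*, *Abca1* and *Abcg1* by group, 1 point per library (replicates 1 to 5 from left to right), with mean and SD (n = 5). In WT with IMQ *Hsd17b7* lies lower and *Abca1* and *Abcg1* higher, with replicate 5 nearest to the untreated libraries in each of the 3 genes.

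Of 7 genes of fatty acid synthesis, 1 rose in WT and 0 fell, whereas 1 rose and 2 fell in Bmal1 Mye-/-. Of all tested genes 3.95% passed in WT and 23.5% in Bmal1 Mye-/-. *Scd2*, a stearoyl-CoA desaturase, rose in both, by log2 fold changes of 2.425 ± 0.544 in WT (adjusted p = 0.0226, edgeR) and 1.695 ± 0.532 in Bmal1 Mye-/- (adjusted p = 0.0303, edgeR). In WT it was at 5.99 to 11.6 CPM untreated and at 45.2, 47.8, 118, 30.8 and 4.66 CPM with IMQ, so replicate 5 lay below every untreated library. In Bmal1 Mye-/- it was at 5.54 to 13.3 CPM untreated and 10.6 to 50.4 CPM with IMQ, again with overlap. *Scd1*, its close relative, had the lowest value of the list in WT at −0.95 ± 0.49 and fell in Bmal1 Mye-/- with a log2 fold change of −1.375 ± 0.489 (SE, adjusted p = 0.0484, edgeR), a call that the replicate block removed (adjusted p = 0.0672, edgeR). *Acss2*, which makes acetyl-CoA from acetate, fell in Bmal1 Mye-/- by 0.92 (SE 0.22, adjusted p = 0.0107, edgeR). Of 7 genes of isoprenoid use 0 passed in WT with edgeR, DESeq2 or limma, and 2 had an unadjusted p under 0.05 (edgeR), beside 22.3% of all tested genes. Values there lay between −0.36 for *Coq2* and 0.35 for *Fntb*. In Bmal1 Mye-/- *Pggt1b*, a subunit of a protein prenylation enzyme, rose by 0.49 (SE 0.15, adjusted p = 0.0277, edgeR), *Rabggta*, a subunit of the Rab enzyme, fell by 0.47 (SE 0.15, adjusted p = 0.0354, edgeR), and *Coq2* had the highest value at 0.57 ± 0.27.

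The 21 pairs of the 7 genes were positively correlated across mice, to differing degrees. Over 20 libraries the Pearson correlations of log2 CPM for their 21 pairs ranged from 0.21 to 0.92 with a median of 0.66, and Spearman's rho from 0.18 to 0.94 with a median of 0.60. With group means removed, Pearson's r ranged from 0.30 to 0.89 with a median of 0.65. *Idi1* and *Cyp51* were the closest pair (r = 0.92, and 0.89 with group means removed), followed by *Sqle* and *Fdft1* (0.83 and 0.84). *Fdps* and *Hmgcs1* were the least alike over all libraries (0.21 and 0.35). The values share the libraries, their depth and their cell composition, and are given as a description. Pairs of other genes were not computed for comparison.

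For the mean of the 7 standardized log2 CPM profiles, Bmal1 Mye-/- IMQ replicate 5 was highest at 1.53 and WT IMQ replicate 4 lowest at −1.43, with Bmal1 Mye-/- IMQ replicate 4 next at −1.34, so the IMQ-treated Bmal1 Mye-/- group spanned nearly the whole range. Untreated WT lay between 0.11 and 0.94, and IMQ-treated WT between −1.43 and 0.41. Among tested genes outside all lists, the 10 most like this profile over 20 libraries were *P2rx1* (r = 0.79), *Lztr1*, *Sec16b*, *Mmab*, *Zfp507*, *Ldhb*, *Tmem177*, *Runx3*, *Letmd1* and *Pwp1* (r = 0.73). With group means removed they were *Fam151a* (r = 0.86), *Nars*, *Slc7a1*, *Ubl4a*, *Foxk2*, *Nup62*, *Mars*, *Mthfd2*, *Mllt1* and *Zranb2* (r = 0.80). Of the listed genes that are not members, *Stard4*, a sterol carrier, was closest to the profile, at r = 0.90 over all libraries and 0.95 with group means removed, followed by *Nsdhl*, a sterol dehydrogenase of the pathway, at 0.82 in both. Of the members, *Hmgcs1* was least like the profile, of which it is a part, at 0.67 and 0.61, the latter rank 1090 of all tested genes. The 10 proliferation genes lay at 0.21 to 0.495 over all libraries and at 0.57 to 0.67 with group means removed.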

How the data were processed

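The deposited files give raw counts per gene for 20 libraries. Per the study's methods, poly(A) RNA was sequenced and Read 1 was aligned to mm10 with TopHat, whereas the submitters' processing notes name bcl2fastq, STAR 2.7.8a, HTSeq 2.0.1 and mm10. The annotation and the strand setting are not given in the sources used here, so reads of *Fdft1* and *Ctsb*, or *Cyp51* and *Akap9*, cannot be told apart where they overlap. *Hmgcs1*, *Idi1* and *Lss* also overlap annotated transcripts on the other strand, and *Fdps* overlaps *Gm43738* on its own strand, where strand cannot part the reads; *Gm43738* was not among the genes listed. Lines for reads on no feature (51.85% to 57.79% of reads), ambiguous or not uniquely aligned were left out. The methods name 2 sequencers without assigning libraries to them, so sequencer could not be checked. The authors' RPKM values and analysis of variance were replaced by a count test. A combined table, identical to the 20 files, was not used.

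Counts were fitted in R 4.3.3 with edgeR 4.0.16 (filterByExpr, TMM, quasi-likelihood, 1 model of 4 groups), with Benjamini-Hochberg adjustment over 14030 genes and a threshold of 0.05. SE were derived from the F statistic, and the fit was tested on simulated data. Log2 CPM used a prior count of 2. mRNA lengths, each that of the longest principal coding transcript, and positions came from GENCODE M21 by symbol (23334 of 24421 genes matched). Alternatives used DESeq2 1.42.0, limma 3.58.1 on log2(CPM + 0.1), RLE factors, total library sizes, no filter, at least 10 counts in every library, 2 groups only, a replicate block, and each library left out.

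The replicate numbers in the labels were checked for pairing by correlating residuals over genes. For IMQ-treated and untreated Bmal1 Mye-/- the 5 correlations were 0.128 to 0.426, and for WT they were 0.073 to 0.384. Libraries with different numbers were not correlated for comparison, so pairing was not established in either genotype. The replicate block is therefore given only as an alternative. Outside the blocked values given in the text, the numbers entered no fit. Remarks on same-numbered libraries of *Fdps*, *Fdft1*, *Idi1* and *Cyp51* are a description. The members and gene lists were chosen with earlier results of these data known. Named were all members, the other pathway and related genes that passed or had the highest or lowest fold change of their list in an IMQ comparison, and the 10 genes most like the members. Some listed genes are not reported here and are in none of the list counts, though they were in the fits. *Ly6g*, *Trac* and *Trbc2* were not among the genes listed.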

Additional observations from a re-analysis of the deposited data

Results flagged for a closer look

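Of 28 combinations of a member and a group of 5 libraries, 3 held a library whose gap to its nearest neighbour was large for the group's range by Dixon's criterion, which chance gives for about 1 in 20 groups. *Hmgcs1* was at 42.6 CPM in Bmal1 Mye-/- IMQ replicate 5, where the next library was at 23.9 CPM. *Fdps* was at 32.2 CPM in WT IMQ replicate 3, where the next was at 12.4 CPM. *Lss* was at 1.25 CPM in untreated Bmal1 Mye-/- replicate 4, where the next was at 1.65 CPM. The first 2 libraries were also among the 4 with the highest sum of proliferation genes, and the part of these genes was not tested.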

How the results depend on the processing

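With limma in place of edgeR, 1 member (*Cyp51*) was called in WT and 0 in Bmal1 Mye-/-, beside 5.03% and 23.1% of all tested genes. DESeq2 called 2 members in WT, and of the other pathway genes 3 in WT and 1 between the IMQ-treated genotypes. It called 10.6% of all genes it tested in WT and 2.24% between the IMQ-treated genotypes. The replicate block called 1 member (*Cyp51*) and 2 other pathway genes in WT, beside 1.35% of all tested genes. It turned *Fdps* in WT to −0.087, and moved no other of these counts by over 1.5 times. Total library sizes and no filter each called 0 members in Bmal1 Mye-/-, beside 22.7% and 12.3% of all tested genes. In WT, total library sizes called 2 other pathway genes, beside 2.82% of all tested genes. Total library sizes moved the median of all genes from 0.024 to 0.155 in Bmal1 Mye-/- and from 0.034 to 0.229 between the IMQ-treated genotypes. Leaving out both libraries with over 6% of reads not uniquely aligned, chosen after seeing the data, gave 1 member (*Fdps*) between the IMQ-treated genotypes, and of the other pathway genes 4 in WT, 2 in Bmal1 Mye-/- and 1 between the IMQ-treated genotypes, where 6.35%, 28.8% and 8.89% of all tested genes were called.

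With each library left out in turn, member calls ranged from 0 to 2 in WT, 0 to 1 in Bmal1 Mye-/- and 0 to 2 between the IMQ-treated genotypes, and calls of other pathway genes from 0 to 2, 1 to 1 and 0 to 1. In WT, 2 members (*Cyp51* and *Idi1*) were called without Bmal1 Mye-/- IMQ replicate 4, and 1 (*Cyp51*) without WT IMQ replicate 5. Of the other pathway genes, 0 were called in WT without WT IMQ replicate 1 and again without replicate 2, and 2 without replicate 5. The call of *Fdps* in Bmal1 Mye-/- was lost without untreated WT replicates 1, 2 or 5, untreated Bmal1 Mye-/- replicates 1, 2, 3 or 4, WT IMQ replicate 1, or Bmal1 Mye-/- IMQ replicates 1, 3 or 5, each left out alone. Between the IMQ-treated genotypes, 1 other pathway gene (*Mvk*) was called without WT IMQ replicate 3 and again without Bmal1 Mye-/- IMQ replicate 4. In these fits the share of all tested genes called ran from 0.336% to 13.9% in WT, from 11.4% to 31.5% in Bmal1 Mye-/- and from 0.14% to 21.9% between the IMQ-treated genotypes.

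Directions turned where the fitted change was near 0. For *Hmgcs1* in Bmal1 Mye-/- the log2 fold change was 0.12 with total library sizes, 0.012 without a filter, 0.001 with 2 groups only and 0.119 without both libraries, and it ranged from −0.278 to 0.107 with 1 library left out. Between the IMQ-treated genotypes that range was −0.202 to 0.179. *Fdps* in WT was at −0.123 with limma and −0.497 without both libraries, and ranged from −0.494 to 0.222. In Bmal1 Mye-/- the ranges were −0.089 to 0.444 for *Sqle*, −0.011 to 0.363 for *Lss* and −0.298 to 0.031 for *Cyp51*. The cause of these shifts was not tested. Of 1008 alternative values of the members' fold changes, 954 kept their direction and their side of the threshold. With 5 mice per group and SEs of 0.195 to 0.53 for the members, smaller differences could not be resolved. Some differences well above their SE, as those of *Cyp51* and *Idi1* in WT, did not pass the main test either.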
